A study of Mus musculus with 9 samples.

Results

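Gene expression was compared between cells sorted from the livers of mice 4 weeks after bile duct ligation and cells sorted from the livers of sham-operated mice. The comparison takes 6 of the 9 libraries of the study, 3 at 4 weeks of ligation and 3 sham. The design text gives 3 mice per group, and no source used here says whether cells of several mice were pooled. The comparison covers 11946 of the 21936 protein-coding genes of the deposited table, namely those whose normalized counts averaged 10 or more over the 6 libraries. All mice carried the IL7GFP knock-in, in which green fluorescent protein is made from the Il7 locus and serves as a reporter of lymphatic endothelial cells, so the sham mice carried it too. The 4-week mice had their bile duct tied off and were sampled 4 weeks later. The sham mice had sham surgery, and no source used here says when they were sampled. Cells were sorted straight into TRIzol, between 20000 and 50000 of them per sample. Libraries came from total RNA with the ribosomal RNA removed. The sorting gate and the strain, age and sex of the mice are also not stated there. Another group, sampled at 2 weeks, entered the fit to the spread. Apart from a description of where its means lay, it is otherwise left aside.

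Lymphatic vessels of the liver run in the portal tracts and drain fluid, solutes and immune cells from the organ. Their endothelial cells carry Prox1, the transcription factor that sets lymphatic identity, Flt4, the receptor for VEGF-C, Pdpn, a membrane mucin, and Lyve1, a hyaluronan receptor that liver sinusoidal endothelium and some macrophages also carry. Tying off the bile duct stops bile flow and leads to cholestasis, growth of bile ductules, fibrosis around the portal tracts and entry of monocytes from the blood. Kupffer cells are the resident macrophages of the liver, known in mice by Clec4f and Timd4, and the level of their genes is known to drop when monocyte-derived macrophages take their place in injury. Interferons bind receptors at the cell surface and switch on antiviral genes and genes of antigen presentation, and Ciita is the coactivator that MHC class II genes need.

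Markers of the labelled lymphatic endothelium and of Kupffer cells, which the label does not name, were both read in every library. Prox1 had 444, 1637 and 1675 normalized counts in the 4-week libraries, against 1729, 321 and 2209.6 in the sham libraries. Flt4 had 2690.1, 5545 and 5186 normalized counts in the 4-week libraries, against 5616, 883 and 7551 in the sham libraries. The lowest Prox1 value of each group was in 4-week replicate 1 and sham replicate 2, and the groups overlapped for both genes. Clec4f, a C-type lectin of Kupffer cells, had 1733, 1062 and 534 normalized counts in the 4-week libraries, against 10027, 13769 and 6850.1 in the sham libraries, and Ptprc, the leukocyte antigen CD45, had 2152, 894 and 753 normalized counts in the 4-week libraries, against 1796, 2056 and 1345 in the sham libraries. Of the lymphatic endothelial list of 18 genes, Ccl21a was at 0 in all libraries. Alb, the albumin gene of hepatocytes, had 599, 10318 and 7139 normalized counts in the 4-week libraries, against 707, 8406 and 4489 in the sham libraries, with the lowest value of each group in 4-week replicate 1 and sham replicate 1. In bulk samples of this kind, fewer cells of a type and less RNA per cell cannot be told apart.

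Depth was uneven. Whole reads recovered from the values numbered between 2259239 and 4399759 in the 4-week libraries and 3324445, 592419 and 3717921 in sham replicates 1, 2 and 3. Since sham replicate 2 held the fewest reads, a count of 0 in it allows up to 15.8 normalized counts, against 2.34 to 3.69 in the other 5 libraries (3 reads, counting error only). At least 1 read was found on 16814, 18441 and 19299 genes in 4-week replicates 1, 2 and 3, against 14930, 13574 and 15373 genes in sham replicates 1, 2 and 3. Because sham replicate 2 and 4-week replicate 1 stand apart in depth or in lymphatic marker level, the counts of genes are given with and without them, and so is each described gene that passed with all libraries and did not without sham replicate 2.

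Of the 11946 genes, 142 passed an adjusted p of 0.05 in limma, which is 1.19% of them. At 4 weeks 63 genes (0.527%) were higher and 79 (0.661%) were lower than in sham. In all 142 the 3 libraries of one group lay beyond the 3 of the other, which was so for 2020 of the tested genes (16.9%), 1011 with 4 weeks higher (8.46%) and 1009 with 4 weeks lower (8.45%). The median log2 fold change over all tested genes was 0.06, with 6562 above 0 and 5384 below it. The genes that were higher had a median size of 3.22 on the log2 scale, with medians of 246 normalized counts at 4 weeks and 20.8 in sham. Those that were lower had a median size of 2.29, with medians of 54.8 normalized counts at 4 weeks and 232 in sham. All fold changes are on the log2(normalized count + 1) scale, which understates the change of genes with low values.

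**Figure D1:**
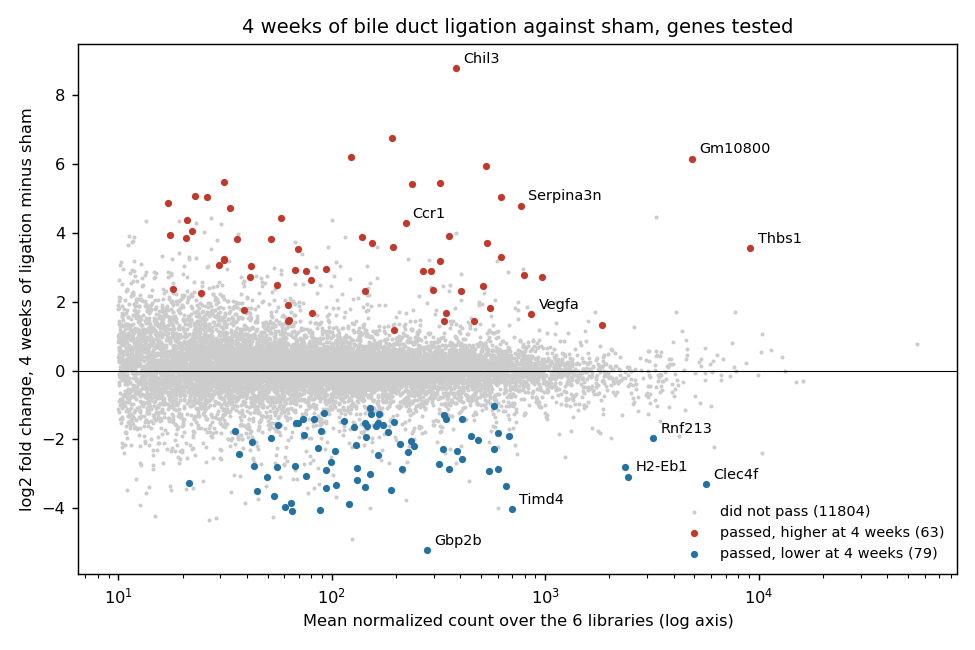
Each point is 1 of the 11946 tested genes, with the mean normalized count over the 6 libraries on a log axis and the log2 fold change of 4 weeks minus sham on the vertical axis. The 63 genes that passed and were higher at 4 weeks are red, the 79 that passed and were lower are blue, and the rest are grey. Chil3 and several predicted models lie at the top, Gbp2b at the bottom, and Thbs1 and Clec4f are the passing genes furthest to the right.

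The number of genes that passed depended on which libraries were kept. Without sham replicate 2, 166 genes passed (1.39%), 101 higher and 65 lower, of which 107 were among the 142. Without 4-week replicate 1, 119 passed (0.996%), 51 higher (0.427%) and 68 lower, of which 84 were among the 142. Without both, 477 passed (3.99%), 247 higher and 230 lower, and 132 of the 142 were still among them. Of the 142 genes, 107 passed in all 3 fits with all libraries, without sham replicate 2 and without both, 57 higher and 50 lower. Leaving out other libraries lowered the count further. It was 9 without 4-week replicate 3, 38 without 4-week replicate 2, 70 without sham replicate 1, 68 without sham replicate 3 and 74 without the 2-week library of replicate 3. The quasi-likelihood test of edgeR on the recovered reads called 208 genes (1.74%), of which 139 were among the 142.

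**Figure D2:**
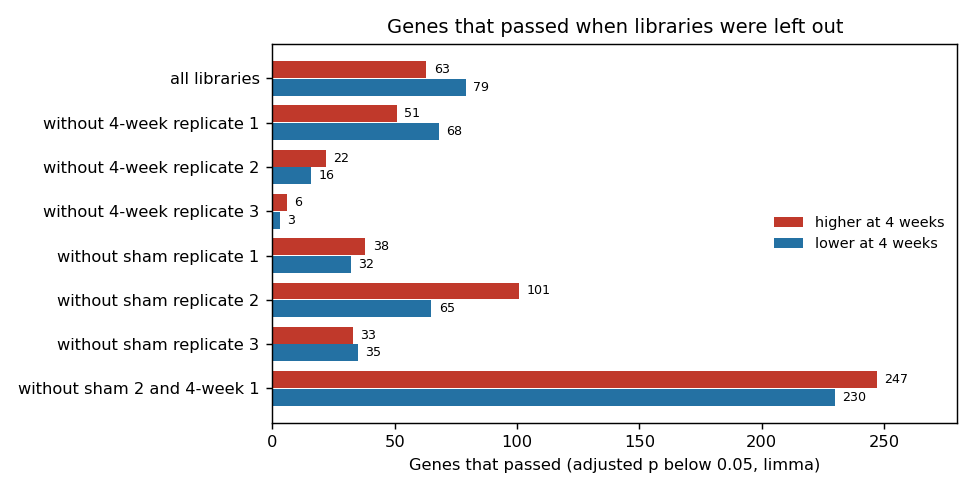
Bars give the number of genes with a limma adjusted p below 0.05, red for higher and blue for lower at 4 weeks, with all libraries and after leaving out 1 or 2 of the 6 libraries. The bars are longest without sham replicate 2 and 4-week replicate 1 together (247 higher, 230 lower) and shortest without 4-week replicate 3 (6 higher, 3 lower).

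A set of 7 genes passed in every fit that left out 1 of the 9 libraries, without both libraries above, and in edgeR, 5 of them higher and 2 lower. Chil3 (Ensembl ENSMUSG00000040809, chr3:106147554-106167564 on GRCm38), a chitinase-like lectin secreted by macrophages, had 1120.1, 233 and 947 normalized counts in the 4-week libraries, against 1.83, 0 and 0 in the sham libraries. That was 2457 reads over the 4-week libraries against 2 reads over the sham libraries, a ratio per read sequenced of 970 (95% exact interval 268 to 8014, counting error only). Every 4-week library was high and sham was at or near 0 (log2 fold change 8.80 ± 0.66 (SE), limma adjusted p = 0.00145). Chil3 shares 35.5% of its 25-base words with Chil4, a close paralog, so part of its reads could have been split or shared between both.

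Ccr1 (chr9:123962124-123968692), a receptor for inflammatory chemokines on monocytes and neutrophils, had 443, 408 and 409.7 normalized counts in the 4-week libraries, against 33.9, 10.5 and 24.1 in the sham libraries. The 4-week values were close to each other and above every sham value (log2 fold change 4.28 ± 0.36 (SE), limma adjusted p = 0.00145). Emb (chr13:117208536-117274415), embigin, a chaperone of lactate transporters, had 400.3, 189.8 and 193 normalized counts in the 4-week libraries, against 19.3, 21.03 and 9.35 in the sham libraries, with 4-week replicate 1 the highest (log2 fold change 3.88 ± 0.39 (SE), limma adjusted p = 0.00473). Serpina3n (chr12:104406729-104414329), a secreted serine protease inhibitor of the acute phase, had 805, 1839 and 1800.1 normalized counts in the 4-week libraries, against 30.3, 73.6 and 53.0 in the sham libraries, with 4-week replicate 1 the lowest of its group and still above sham (log2 fold change 4.79 ± 0.40 (SE), limma adjusted p = 0.00145). Gda (chr19:21391307-21473445), the guanine deaminase of purine breakdown, had 1705, 641 and 642 normalized counts in the 4-week libraries, against 61.4, 116 and 42.1 in the sham libraries, again without overlap (log2 fold change 3.71 ± 0.46 (SE), limma adjusted p = 0.00997).

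Ciita (chr16:10480059-10528418), the coactivator of MHC class II genes, was among the falls of this set. It had 40.0, 47.5 and 17.2 normalized counts in the 4-week libraries, against 214, 284 and 306 in the sham libraries, with 4-week replicate 3 the lowest and every 4-week library below every sham library (log2 fold change -3.01 ± 0.39 (SE), limma adjusted p = 0.0104). The fall does not rest on sham replicate 2, since without it the log2 fold change was -2.96, limma adjusted p = 0.0156.

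Monocyte and inflammatory macrophage genes were the group with the most rises. Like every list used here, their list was drawn up with earlier results of these data known. Its counts, and those of the lists that follow, are descriptions and no independent evidence of direction. Of 16 tested list members, 6 passed and all 6 were higher at 4 weeks (Chil3, Ccr1, Adam8, Thbs1, F13a1 and Fabp5), against 0.527% of all tested genes. The list's median log2 fold change was 2.53 with all libraries, 2.104 without sham replicate 2 and 2.02 without both, against 0.06 over all tested genes with all libraries. Its summed level was between 25147 and 37170.4 normalized counts in the 4-week libraries and between 8045 and 8218 in the sham libraries. Of the 6, 6, 4 and 3 passed without 4-week replicates 1, 2 and 3, 6, 6 and 6 without sham replicates 1, 2 and 3, and 6, 6 and 6 without 2-week replicates 1, 2 and 3.

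Thbs1 (chr2:118111876-118127133), thrombospondin 1, a secreted glycoprotein of platelets, monocytes and stroma that binds matrix and can activate latent TGF-beta, had the highest mean normalized count of any gene that passed. It had 23144, 11415 and 15679.6 normalized counts in the 4-week libraries, against 2221, 626 and 1794 in the sham libraries. The lowest 4-week library held several times the level of the highest sham library (log2 fold change 3.56 ± 0.48 (SE), limma adjusted p = 0.0112). Adam8, a membrane metalloprotease of leukocytes, had 1441, 976 and 1164 normalized counts in the 4-week libraries, against 109, 10.5 and 35.8 in the sham libraries (log2 fold change 5.03 ± 0.65 (SE), limma adjusted p = 0.0104). F13a1, the A subunit of coagulation factor XIII, which crosslinks fibrin and is made by macrophages, had 329, 666 and 728 normalized counts in the 4-week libraries, against 65.1, 110.4 and 27.3 in the sham libraries, the one gene of these with 4-week replicate 1 lowest in its group (log2 fold change 3.20 ± 0.47 (SE), limma adjusted p = 0.016). Fabp5, a fatty acid binding protein, had 927, 688 and 411 normalized counts in the 4-week libraries, against 127, 158 and 104 in the sham libraries (log2 fold change 2.32 ± 0.33 (SE), limma adjusted p = 0.0138).

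Other members of the monocyte list did not pass with all libraries. Of the 16, 8 were higher without sham replicate 2 and 10 without both, against 0.845% and 2.07% of all tested genes. Ccr2, the chemokine receptor of classical monocytes, averaged 26.9 ± 21.6 at 4 weeks and 18.1 ± 15.8 in sham (SD, n = 3 each, limma adjusted p = 0.65). Plac8, another marker of those monocytes, averaged 71.1 ± 81.2 at 4 weeks and 146 ± 175 in sham (limma adjusted p = 0.697). Nr4a1, an orphan nuclear receptor of patrolling monocytes that is also an immediate early gene, averaged 2406 ± 1621 at 4 weeks and 2072 ± 107 in sham (limma adjusted p = 0.987). Over the whole list 14 of 16 log2 fold changes were above 0 and 2 below, and in 9 every 4-week library lay above every sham library, against 8.46% of all tested genes.

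Some receptors found on myeloid cells rose and others fell. Of 18 pattern recognition receptors tested 1 rose (Clec4e) and 1 fell (Tlr12, given further on), and 11 were below 0. Of 22 Fc and inhibitory immune receptors 1 rose (Fcgr2b) and 1 fell (Fcgrt, limma adjusted p = 0.0448 with all libraries and 0.061 without sham replicate 2), 15 were below 0 and the median was -0.47. Of 20 scavenger and efferocytosis receptors 1 rose (Olr1) and 1 fell (Timd4). These counts stand beside 0.527% higher and 0.661% lower over all tested genes. Clec4e, the lectin receptor Mincle that binds mycobacterial glycolipids and signals of dead cells, had 1909.8, 495 and 978 normalized counts in the 4-week libraries, against 71.5, 205 and 63.9 in the sham libraries (log2 fold change 3.30 ± 0.59 (SE), limma adjusted p = 0.0311). Clec4d, its partner lectin encoded next to it, had 953, 227 and 381 normalized counts in the 4-week libraries, against 66.0, 73.6 and 39.7 in the sham libraries (log2 fold change 2.89 ± 0.47 (SE), limma adjusted p = 0.0216). In both genes 4-week replicate 1 was the highest and 4-week replicate 2 the lowest of the group. Itgam, the integrin alpha M chain of complement receptor 3, had 741, 288 and 405 normalized counts in the 4-week libraries, against 66.0, 68.3 and 45.2 in the sham libraries (log2 fold change 2.89 ± 0.39 (SE), limma adjusted p = 0.0112), but the predicted gene Gm49368 overlaps 70.0% of its exon bases on the same strand, so its count is uncertain. Ms4a4a, a tetraspan membrane protein of macrophages, had 614, 207 and 255 normalized counts in the 4-week libraries, against 15.6, 31.5 and 33.5 in the sham libraries (log2 fold change 3.59 ± 0.44 (SE), limma adjusted p = 0.00997). Olr1, a receptor for oxidized lipoprotein, had 139.7, 149.5 and 121 normalized counts in the 4-week libraries, against 30.3, 10.5 and 29.6 in the sham libraries (log2 fold change 2.62 ± 0.40 (SE), limma adjusted p = 0.0181), and Cd93, a lectin-like receptor of endothelial and myeloid cells, had 1836, 1393 and 1723 normalized counts in the 4-week libraries, against 373, 131 and 316 in the sham libraries (log2 fold change 2.71 ± 0.39 (SE), limma adjusted p = 0.0146). Of Clec4e, Clec4d, Itgam, Ms4a4a, Olr1 and Cd93, which were picked as rises, 5, 5 and 0 passed without 4-week replicates 1, 2 and 3, 4, 6 and 4 without sham replicates 1, 2 and 3, and 6, 6 and 6 without 2-week replicates 1, 2 and 3.

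Of 16 members of the neutrophil list 9 were tested. Mmp8, a collagenase stored in neutrophil granules, and Clec4d passed, both higher, against 0.527% of all tested genes. The list's median was 2.70 with all libraries, 3.06 without sham replicate 2 and 2.50 without both. In each of these reduced fits 3 members were higher, against 0.845% and 2.07% of all tested genes. Mmp8 had 37.7, 29.5 and 55.4 normalized counts in the 4-week libraries, against 1.83, 0 and 1.56 in the sham libraries (log2 fold change 4.39 ± 0.66 (SE), limma adjusted p = 0.018). Of both genes, 2, 1 and 0 passed without 4-week replicates 1, 2 and 3, 1, 2 and 1 without sham replicates 1, 2 and 3, and 2, 2 and 2 without 2-week replicates 1, 2 and 3. S100a8, a calcium-binding protein abundant in neutrophils, had 22.8, 9.85 and 19.7 normalized counts in the 4-week libraries, against 0, 10.5 and 0 in the sham libraries and did not pass (limma adjusted p = 0.271). Over the list the summed level was 1789 to 2075 normalized counts in the 4-week libraries and 646 to 835 in the sham libraries. Pf4, a chemokine of platelets and megakaryocytes that some macrophages also make, had 291, 259.7 and 288 normalized counts in the 4-week libraries, against 58.7, 5.26 and 25.7 in the sham libraries (log2 fold change 3.70 ± 0.65 (SE), limma adjusted p = 0.0294), while the platelet integrin chain Itga2b averaged 16.6 ± 11.2 at 4 weeks and 10.6 ± 9.38 in sham (SD, n = 3 each, limma adjusted p = 0.689).

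**Figure D3:**
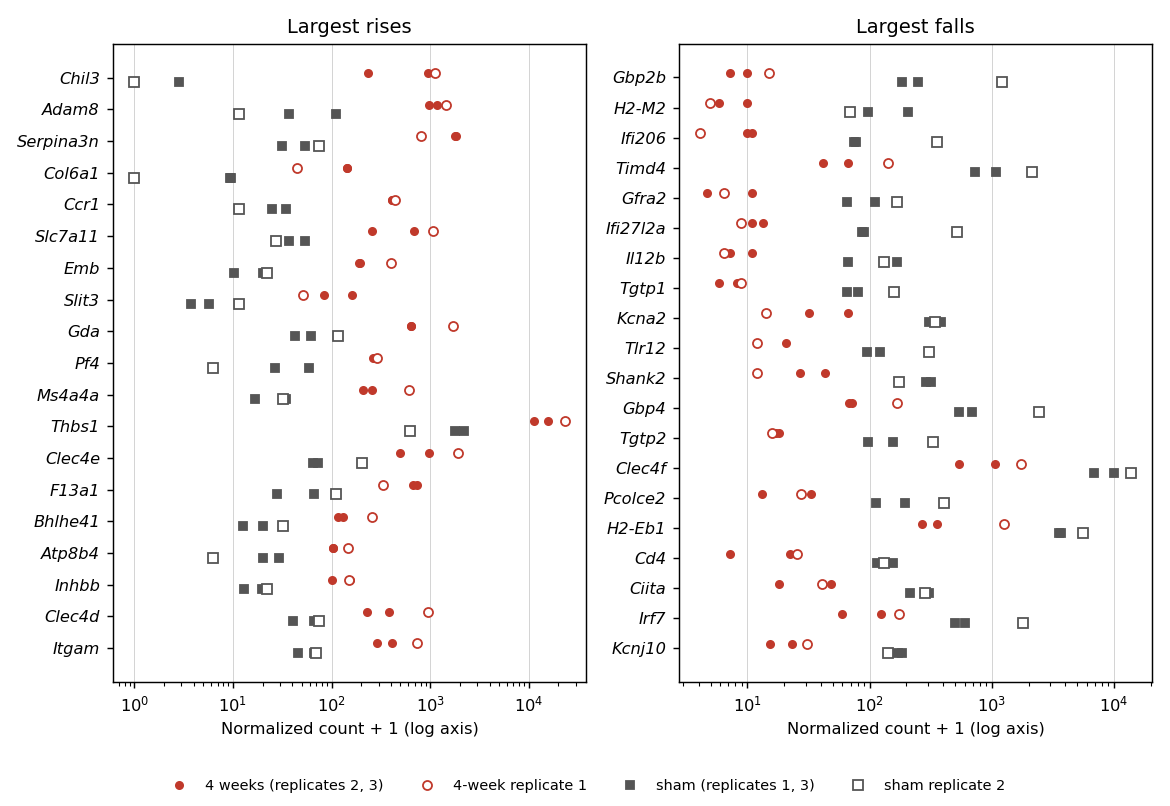
Normalized counts plus 1 on a log axis for 19 of the 20 genes with the largest rise (left panel) and the 20 with the largest fall (right panel) among those that passed with a mean of at least 50. Red circles are the 4-week libraries and grey squares the sham libraries, with 4-week replicate 1 and sham replicate 2 drawn open. In each row the red and grey symbols do not overlap, and sham replicate 2 is the highest sham library in 13 of the 20 falls.

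Chemokines and cytokines moved gene by gene. The shares over all tested genes, for the counts below, were 0.527% higher and 0.661% lower. Of 21 chemokine ligands tested, Ccl9 and Pf4 passed, both higher, and the list's median was -0.30. Ccl9, a chemokine of myeloid cells found in rodents that binds Ccr1, had 2481, 772 and 965 normalized counts in the 4-week libraries, against 138, 268 and 155 in the sham libraries (log2 fold change 2.77 ± 0.44 (SE), limma adjusted p = 0.0193). Of 32 cytokine and receptor genes, 1 rose and 1 fell. Osm, oncostatin M, a cytokine of the IL-6 family made by myeloid cells, had 347, 219 and 148 normalized counts in the 4-week libraries, against 24.8, 57.8 and 58.4 in the sham libraries (log2 fold change 2.33 ± 0.45 (SE), limma adjusted p = 0.0403). Il12b, the shared p40 chain of IL-12 and IL-23, had 5.49, 9.85 and 6.15 normalized counts in the 4-week libraries, against 66.0, 131 and 167 in the sham libraries (log2 fold change -3.84 ± 0.75 (SE), limma adjusted p = 0.0423). Without sham replicate 2 its log2 fold change was -3.74, limma adjusted p = 0.0742. Of 10 chemokine receptors tested Ccr1 passed, and Ccr7, the receptor that guides dendritic cells into lymphatics, averaged 17.4 ± 1.41 at 4 weeks and 64.1 ± 44.6 in sham (SD, n = 3 each, limma adjusted p = 0.196). Of Ccl9, Pf4, Osm, Il12b and Ccr1, 2, 2 and 1 passed without 4-week replicates 1, 2 and 3, 2, 4 and 1 without sham replicates 1, 2 and 3, and 4, 4 and 2 without 2-week replicates 1, 2 and 3.

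Matrix genes on the lists rose in few cases with all libraries and in more without both libraries. Col11a1, Col13a1, Cilp, Mgp and Spon1, matrix genes on none of the lists, also passed and were higher. Pcolce2 passed and was lower. These genes are given further on. Of 17 listed collagens tested, Col6a1, a chain of the beaded filament collagen VI, passed and was higher (0.527% of all tested genes). It had 43.2, 141 and 144 normalized counts in the 4-week libraries, against 8.25, 0 and 8.57 in the sham libraries (log2 fold change 4.44 ± 0.87 (SE), limma adjusted p = 0.0423), with no read in sham replicate 2, and it kept the call in 1 of the 9 fits that left out 1 library, the one without sham replicate 2. The collagen list had a median of 1.29 with all libraries and 2.06 without both, and 8 of the 17 passed without both (2.07% of all tested genes were higher there). Col1a1, the alpha 1 chain of the main fibrillar collagen, had 257, 672 and 1109 normalized counts in the 4-week libraries, against 65.1, 294 and 27.3 in the sham libraries, and sham replicate 2 lay above 4-week replicate 1. Its log2 fold change was 2.82 ± 0.84 (SE), limma adjusted p = 0.167 with all libraries and 4.32, limma adjusted p = 0.00976 without both. Col1a2, the alpha 2 chain, had 190.0, 397 and 639 normalized counts in the 4-week libraries, against 59.6, 68.3 and 12.5 in the sham libraries (log2 fold change 3.25 ± 0.69 (SE), limma adjusted p = 0.0549).

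Matrix glycoproteins and crosslinking enzymes had a median of 1.43 over 26 tested genes, 0.63 without sham replicate 2 and 1.05 without both. Of the 26, Thbs1 passed with all libraries and none fell. Without both 8 were higher and 1 lower, against 2.07% and 1.93% of all tested genes. Of 21 metalloproteases and inhibitors 3 rose, Adam8, Mmp8 and Mmp2, a gelatinase of stromal cells, which had 92.6, 81.5 and 108 normalized counts in the 4-week libraries, against 21.1, 10.5 and 17.9 in the sham libraries (log2 fold change 2.48 ± 0.45 (SE), limma adjusted p = 0.0343). Among all tested genes the share that was higher was 0.527%. The limma adjusted p of Mmp2 was 0.0553 without sham replicate 2 and 0.0518 without both. Of the 3, 2, 1 and 0 passed without 4-week replicates 1, 2 and 3, 2, 2 and 2 without sham replicates 1, 2 and 3, and 3, 3 and 2 without 2-week replicates 1, 2 and 3. Of 15 tested genes of stellate cells and fibroblasts none passed with all libraries, and 5 were higher without both (2.07% of all tested genes). The median of these genes was 1.71. Their summed level was 10158 to 16733 normalized counts in the 4-week libraries and 1898 to 7815 in the sham libraries, of which Reln, a secreted glycoprotein that lymphatic endothelium also makes, averaged 10660.0 ± 2537 at 4 weeks and 4780.3 ± 3581 in sham (SD, n = 3 each). Acta2, the smooth muscle actin of activated stellate cells, averaged 26.4 ± 20.98 at 4 weeks and 15.3 ± 10.1 in sham (limma adjusted p = 0.695). The part of stromal cells in the matrix genes was not tested.

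Among signalling genes, Vegfa, the growth factor of blood vessel endothelium, had 1545, 1232 and 1125 normalized counts in the 4-week libraries, against 519.9, 321 and 415 in the sham libraries (log2 fold change 1.65 ± 0.25 (SE), limma adjusted p = 0.0181). It was the single gene of 18 VEGF and angiopoietin genes that passed. Beside this and the list counts that follow, 1.19% of all tested genes passed in either direction. Slit3, a guidance ligand of Robo receptors, had 50.2, 159 and 82.4 normalized counts in the 4-week libraries, against 2.75, 10.5 and 4.67 in the sham libraries (log2 fold change 3.82 ± 0.53 (SE), limma adjusted p = 0.0124), 1 of 27 axon guidance genes to pass. Inhbb, the beta B subunit of activin, had 148, 100.3 and 154 normalized counts in the 4-week libraries, against 11.9, 21.03 and 18.7 in the sham libraries (log2 fold change 2.90 ± 0.46 (SE), limma adjusted p = 0.0193), 1 of 23 genes of TGF-beta and BMP signalling. Bhlhe41, a transcriptional repressor of the circadian clock, had 258, 116 and 129 normalized counts in the 4-week libraries, against 19.3, 31.5 and 11.7 in the sham libraries (log2 fold change 2.96 ± 0.52 (SE), limma adjusted p = 0.0294). Of these 4 genes, 2, 0 and 0 passed without 4-week replicates 1, 2 and 3, 2, 4 and 1 without sham replicates 1, 2 and 3, and 4, 3 and 4 without 2-week replicates 1, 2 and 3.

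Of 20 amino acid and nucleoside transporter genes tested 1 rose and 2 fell (0.527% and 0.661% of all tested genes). Of the 20, 10 were above 0 and 10 below, and the median was -0.03. The rise was Slc7a11, the light chain of the cystine and glutamate exchanger, which had 1059, 254 and 692 normalized counts in the 4-week libraries, against 53.2, 26.3 and 35.8 in the sham libraries (log2 fold change 3.92 ± 0.50 (SE), limma adjusted p = 0.0104). The falls were the glutamate transporters Slc1a3, with a log2 fold change of -1.75 ± 0.30 (SE), limma adjusted p = 0.0287, and Slc1a2, with -3.08 ± 0.61 (SE), limma adjusted p = 0.0437 and, without sham replicate 2, a limma adjusted p of 0.0775. Of these 3, 1, 1 and 0 passed without 4-week replicates 1, 2 and 3, 1, 2 and 1 without sham replicates 1, 2 and 3, and 2, 2 and 1 without 2-week replicates 1, 2 and 3. Slc7a11 was also the single gene of 19 NRF2 target genes that passed, and the list's median was -0.19. Slc16a3, the lactate exporter MCT4, had 76.1, 90.4 and 109.5 normalized counts in the 4-week libraries, against 33.9, 36.8 and 28.8 in the sham libraries (log2 fold change 1.44 ± 0.27 (SE), limma adjusted p = 0.037). Together with Vegfa, Slc16a3 made up the 2 passing genes of the 23 of glycolysis and hypoxia, whose median was 0.32. Atp8b4, a phospholipid flippase subunit, had 148, 103 and 102 normalized counts in the 4-week libraries, against 19.3, 5.26 and 28.0 in the sham libraries (log2 fold change 2.92 ± 0.50 (SE), limma adjusted p = 0.0274). Of Slc7a11, Slc16a3 and Atp8b4, 2, 1 and 0 passed without 4-week replicates 1, 2 and 3, 1, 3 and 2 without sham replicates 1, 2 and 3, and 2, 2 and 1 without 2-week replicates 1, 2 and 3.

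All 20 of the largest rises passed without sham replicate 2, without both libraries and in edgeR. By single libraries, 14, 13 and 5 passed without 4-week replicates 1, 2 and 3, 14, 20 and 14 without sham replicates 1, 2 and 3, and 19, 18 and 17 without 2-week replicates 1, 2 and 3. Their log2 fold changes ran between 2.89 and 8.80.

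A further 8 of the 63 rises were predicted gene models, namely Gm10800, Gm10801, Gm21738, Gm10722, Gm11168, Gm10721, Gm10718 and Gm10717, which leaves 55 other genes. Each shared between 42.9% and 86.9% of its 25-base words with another of the 8, so reads on them cannot be assigned to 1 model with certainty. Together they had 2356, 13511 and 21696 normalized counts in the 4-week libraries, against 193, 52.6 and 194 in the sham libraries. Gm10800 alone had 1786, 10474 and 16632 normalized counts in the 4-week libraries, against 148, 36.8 and 152 in the sham libraries. In the 4-week group the sum was lowest in replicate 1 and highest in replicate 3. Of the 8 models, 8, 1 and 0 passed without 4-week replicates 1, 2 and 3, 6, 8 and 4 without sham replicates 1, 2 and 3, and 6, 7 and 6 without 2-week replicates 1, 2 and 3.

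Reads on genes that liver cells are not known to use followed the same order within the 4-week group. The 1492 odorant and vomeronasal receptor genes, which serve smell, held 222, 702 and 1424 of every 1000000 reads in 4-week replicates 1, 2 and 3, against 38.2, 451 and 52.7 in sham replicates 1, 2 and 3. Sham replicate 2 lay between the 4-week libraries, so the groups overlapped. Expressed per kilobase of exon, the density was 0.139, 0.344 and 0.720 normalized counts in the 4-week libraries and 0.0212, 0.255 and 0.0278 in the sham libraries. The same density over the exons of the 20 largest rises amounts to between 0.0279% and 5.30% of a 4-week library's value, with a median of 0.682% and the highest value in Slit3. The part of these reads in the predicted models was not tested. This measure was chosen after the values had been seen.

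**Figure D4:**
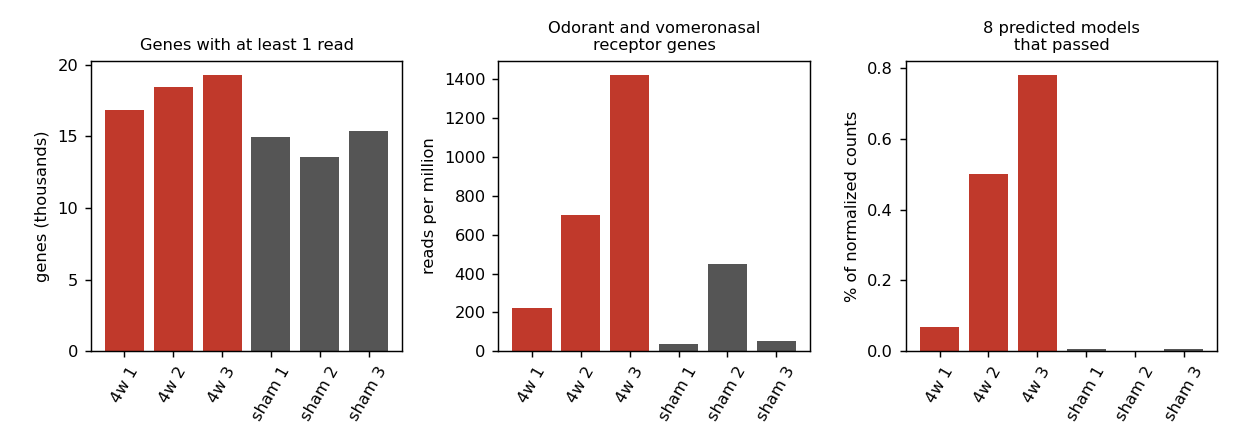
Bars give, for 4-week replicates 1 to 3 (red) and sham replicates 1 to 3 (grey), the number of genes with at least 1 read, the reads per 1000000 on 1492 odorant and vomeronasal receptor genes, and the share of all normalized counts on the 8 predicted models that were higher at 4 weeks. In the 4-week group all 3 measures are lowest in replicate 1 and highest in replicate 3.

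Interferon genes made up many of the falls. Of 31 tested genes stimulated by type I interferon 8 passed, all lower, against 0.661% of all tested genes, and in 28 the groups did not overlap with 4 weeks lower, against 8.45% of all tested genes. All 31 log2 fold changes were below 0, and their median was -1.82 with all libraries, -1.34 without sham replicate 2 and -1.54 without both. The number that passed was 10 without sham replicate 2 and 15 without both, all lower, against 0.544% and 1.93% of all tested genes. Of the 8, 4, 1 and 1 passed without 4-week replicates 1, 2 and 3, 5, 8 and 5 without sham replicates 1, 2 and 3, and 6, 5 and 4 without 2-week replicates 1, 2 and 3. Among the 8 were Ddx58, Ifi206, Ifi27l2a, Bst2, Irf7, Ifi44 and Ifit3.

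Irf7, the transcription factor that amplifies the interferon response, had 174, 124 and 59.1 normalized counts in the 4-week libraries, against 606, 1798 and 504 in the sham libraries. Sham replicate 2 was far above the other sham libraries, and the 4-week libraries were below all of them (log2 fold change -2.91 ± 0.51 (SE), limma adjusted p = 0.0294). Ifit3, an antiviral adaptor, had 27.5, 55.5 and 43.1 normalized counts in the 4-week libraries, against 186, 778 and 187 in the sham libraries (log2 fold change -2.86 ± 0.57 (SE), limma adjusted p = 0.0448). Ddx58, the cytosolic RNA sensor RIG-I, had 91.1, 109 and 106 normalized counts in the 4-week libraries, against 259, 342 and 268 in the sham libraries (log2 fold change -1.49 ± 0.22 (SE), limma adjusted p = 0.016). Rnf213, a giant ubiquitin ligase induced by interferon, had 1356, 1305 and 1133 normalized counts in the 4-week libraries, against 3920.2, 7486 and 4052 in the sham libraries (log2 fold change -1.96 ± 0.31 (SE), limma adjusted p = 0.0189).

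The GTPases that interferon gamma induces for defence inside the cell, guanylate-binding proteins (GBP) and immunity-related GTPases (IRG), had the lowest median of any list with at least 5 tested members, -2.39. All 17 tested were below 0, 7 passed (Gbp2b, Gbp3, Gbp4, Igtp, Irgm2, Tgtp1 and Tgtp2), against 0.661% of all tested genes lower, and the groups did not overlap in 16, against 8.45% of all tested genes with 4 weeks lower. Gbp2b had 14.1, 8.95 and 6.15 normalized counts in the 4-week libraries, against 249, 1209 and 182 in the sham libraries (log2 fold change -5.22 ± 0.65 (SE), limma adjusted p = 0.0104). Gbp4 had 168, 67.2 and 71.4 normalized counts in the 4-week libraries, against 535, 2424 and 685 in the sham libraries (log2 fold change -3.35 ± 0.59 (SE), limma adjusted p = 0.0288). In both, sham replicate 2 was several times above the other sham libraries, and without it the log2 fold changes were -4.38, limma adjusted p = 0.00503 for Gbp2b and -2.69, limma adjusted p = 0.0265 for Gbp4. Igtp, whose sham libraries were close together, had 26.7, 27.8 and 23.4 normalized counts in the 4-week libraries, against 157, 221 and 141 in the sham libraries (log2 fold change -2.67 ± 0.35 (SE), limma adjusted p = 0.0104). Of the 7, 4, 4 and 0 passed without 4-week replicates 1, 2 and 3, 4, 4 and 3 without sham replicates 1, 2 and 3, and 6, 4 and 4 without 2-week replicates 1, 2 and 3. Irgm2 had a limma adjusted p of 0.0771 without sham replicate 2. Without both libraries 6 of the 7 passed, and edgeR with all libraries called all 7.

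The promoters of these genes are shown because the core of the interferon-stimulated response element recurs in them. The motif searched was GAAA, any 2 bases and GAAA, read on both strands, in RefSeq promoters of 300 bases (250 before to 50 after the start, GRCm38.p6). It was in 19 of the 65 lower genes with a promoter (29.2%), in 3 of the 41 higher ones (7.32%) and in 380 of 9504 tested genes (4.00%). The 19 are not all separate occurrences, since some of these promoters are closely alike around the match. Such sets are Ifi206, Ifi208 and Ifi213, then Tgtp1, Tgtp2 and Gm12185, and also Igtp and Irgm2. All 10 genes of the GTPase list with a promoter held it, and 13 of 23 of the type I interferon list. Of the 20 largest falls 14 had a promoter and 4 of them the motif, and those 4 are printed 5′ to 3′ on the strand of the gene with the match in capitals, a match to the reverse strand reading TTTC, any 2 bases and TTTC.
Gbp2b: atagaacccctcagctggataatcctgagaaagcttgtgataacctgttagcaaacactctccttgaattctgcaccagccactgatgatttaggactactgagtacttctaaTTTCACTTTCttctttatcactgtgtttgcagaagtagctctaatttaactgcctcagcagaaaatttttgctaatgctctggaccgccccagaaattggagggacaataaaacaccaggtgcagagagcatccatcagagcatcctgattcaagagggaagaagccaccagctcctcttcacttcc
Ifi206: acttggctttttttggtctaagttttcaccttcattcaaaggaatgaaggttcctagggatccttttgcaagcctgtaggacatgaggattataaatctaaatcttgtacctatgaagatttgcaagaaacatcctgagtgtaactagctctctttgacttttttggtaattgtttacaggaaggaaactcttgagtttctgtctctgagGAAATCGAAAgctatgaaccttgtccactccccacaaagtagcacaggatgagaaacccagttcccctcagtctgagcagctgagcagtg
Tgtp1: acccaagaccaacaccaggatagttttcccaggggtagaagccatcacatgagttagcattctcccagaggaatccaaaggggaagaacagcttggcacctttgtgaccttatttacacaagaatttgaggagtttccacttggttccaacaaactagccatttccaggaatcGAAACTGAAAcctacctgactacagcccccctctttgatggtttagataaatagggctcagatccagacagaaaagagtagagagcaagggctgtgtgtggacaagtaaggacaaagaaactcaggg
Tgtp2: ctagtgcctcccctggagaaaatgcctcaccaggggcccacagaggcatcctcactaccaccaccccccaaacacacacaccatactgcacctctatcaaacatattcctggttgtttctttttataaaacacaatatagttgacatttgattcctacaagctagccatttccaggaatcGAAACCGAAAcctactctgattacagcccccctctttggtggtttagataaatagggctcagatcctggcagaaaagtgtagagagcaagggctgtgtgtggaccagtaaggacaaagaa
The Gbp2b promoter lies at chr3:142594597-142594896 on the plus strand with the match at -137 from the start, and that of Ifi206 at chr1:173491269-173491568 on the minus strand with the match at -40. Those of Tgtp1 and Tgtp2 lie at chr11:48992197-48992496 and chr11:49064163-49064462 on the minus strand, with matches at -77 and -70. A match describes these letters and is not a binding site. Another motif, TGA, any 4 bases and GC, the core of the antioxidant response element, was in 48.8% of the higher, 56.9% of the lower and 47.8% of the tested genes with a promoter.

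Of the genes printed, Ifi206, a DNA sensor family member induced by interferon, had 3.14, 8.95 and 9.84 normalized counts in the 4-week libraries, against 74.3, 357 and 76.3 in the sham libraries (log2 fold change -4.06 ± 0.63 (SE), limma adjusted p = 0.0189). Tgtp1, an immunity-related GTPase, had 7.85, 7.16 and 4.92 normalized counts in the 4-week libraries, against 64.2, 158 and 79.4 in the sham libraries (log2 fold change -3.64 ± 0.65 (SE), limma adjusted p = 0.0305), and Tgtp2 had 14.9, 16.1 and 17.2 normalized counts in the 4-week libraries, against 96.3, 331 and 154 in the sham libraries (log2 fold change -3.33 ± 0.65 (SE), limma adjusted p = 0.0423). Tgtp1 shares 84.6% of its 25-base words with Tgtp2, which shares 90.3% with Tgtp1, so the split of reads between both is uncertain. Neither passed without sham replicate 2 (limma adjusted p = 0.0564 for Tgtp1 and 0.0750 for Tgtp2), and without both it was 0.046 for Tgtp1 and 0.0745 for Tgtp2.

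Genes that present antigen were also among the falls. MHC class II genes had a median of -1.37 over 14 tested. Of the 14, 3 passed (Ciita, H2-Eb1 and H2-Aa), all lower, against 0.661% of all tested genes. Without both libraries 9 were lower, against 1.93% of all tested genes. H2-Eb1, a class II beta chain, had 1249, 356 and 268 normalized counts in the 4-week libraries, against 3674, 5609 and 3536 in the sham libraries (log2 fold change -3.08 ± 0.50 (SE), limma adjusted p = 0.0216). H2-Aa, a class II alpha chain, had 1542, 483 and 241 normalized counts in the 4-week libraries, against 3615, 5115 and 3248 in the sham libraries (log2 fold change -2.79 ± 0.55 (SE), limma adjusted p = 0.0448). In both, 4-week replicate 1 stood above the other 4-week libraries, and without it and sham replicate 2 the log2 fold changes were -3.54, limma adjusted p = 0.000739 for H2-Eb1 and -3.32, limma adjusted p = 0.00266 for H2-Aa. Without sham replicate 2 alone they were -2.87, limma adjusted p = 0.0411 for H2-Eb1 and -2.60, limma adjusted p = 0.0866 for H2-Aa, and the edgeR adjusted p with all libraries was 0.0347 for H2-Eb1 and 0.0731 for H2-Aa, so H2-Aa did not pass in either. Cd74, the invariant chain that guides class II molecules, had 8739.8, 2190.2 and 1532 normalized counts in the 4-week libraries, against 14555, 22091 and 12931 in the sham libraries, and did not pass with all libraries (log2 fold change -2.38 ± 0.58 (SE), limma adjusted p = 0.0834) while it did without both (-2.90, limma adjusted p = 0.00212). The factors that bind class II promoters, Rfx5, Rfxap and Rfxank, did not pass, with log2 fold changes of -0.42, 0.39 and 0.27. Of the 3 that did, 3, 1 and 1 passed without 4-week replicates 1, 2 and 3, 1, 2 and 1 without sham replicates 1, 2 and 3, and 2, 2 and 2 without 2-week replicates 1, 2 and 3.

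MHC class I genes had a median of -1.25 over 19 tested, all 19 below 0, with 3 lower (0.661% of all tested genes) and 18 without overlap of the groups and 4 weeks lower (8.45% of all tested genes). Of the 3, 3, 1 and 0 passed without 4-week replicates 1, 2 and 3, 2, 3 and 2 without sham replicates 1, 2 and 3, and 2, 3 and 2 without 2-week replicates 1, 2 and 3. H2-Q6, a nonclassical class I heavy chain, had 251, 167 and 175 normalized counts in the 4-week libraries, against 955, 952 and 956 in the sham libraries. Its sham libraries were nearly equal and each 4-week library was far below them (log2 fold change -2.29 ± 0.27 (SE), limma adjusted p = 0.00997). H2-Q7 had 239, 146 and 188 normalized counts in the 4-week libraries, against 671, 641 and 801 in the sham libraries (log2 fold change -1.90 ± 0.26 (SE), limma adjusted p = 0.0112). H2-Q6 shares 20.4% of its 25-base words with H2-Q7, so reads may be shared between both. Psmb9, a subunit of the immunoproteasome that trims peptides for class I, had 42.4, 29.5 and 32.0 normalized counts in the 4-week libraries, against 95.4, 121 and 87.2 in the sham libraries (log2 fold change -1.52 ± 0.26 (SE), limma adjusted p = 0.0281). H2-K1, a classical heavy chain, averaged 1839 ± 593 at 4 weeks and 5046 ± 1185 in sham (SD, n = 3 each) with a limma adjusted p of 0.054. H2-M2, a class I gene of the M region, had 3.92, 8.95 and 4.92 normalized counts in the 4-week libraries, against 96.3, 68.3 and 206 in the sham libraries (log2 fold change -4.08 ± 0.71 (SE), limma adjusted p = 0.0282).

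Markers of Kupffer cells were among the falls too. Of 16 tested, 4 passed and all 4 were lower (Clec4f, Timd4, Nr1h3 and Kcna2), against 0.661% of all tested genes. In 9 the groups did not overlap with 4 weeks lower, against 8.45% of all tested genes. Of the 16, 15 were below 0, and the median was -1.88. Clec4f, whose values are given above, had a log2 fold change of -3.30 ± 0.56 (SE), limma adjusted p = 0.0267. Timd4, the phosphatidylserine receptor with which resident macrophages take up dying cells, had 141, 65.4 and 40.6 normalized counts in the 4-week libraries, against 1088, 2119 and 729 in the sham libraries (log2 fold change -4.02 ± 0.52 (SE), limma adjusted p = 0.0104). Nr1h3, the oxysterol receptor LXR alpha that sets Kupffer cell identity, had 184, 218 and 161 normalized counts in the 4-week libraries, against 768, 1036 and 533 in the sham libraries (log2 fold change -2.01 ± 0.36 (SE), limma adjusted p = 0.0332). Without sham replicate 2, Timd4 was the one of the 4 that passed, and the limma adjusted p was 0.0504 for Clec4f, 0.058 for Nr1h3 and 0.0642 for Kcna2. Without both libraries Timd4 and Clec4f passed, among 6 members of the list that did, and the limma adjusted p was 0.0514 for Nr1h3 and 0.0601 for Kcna2. Of the 4, 2, 1 and 0 passed without 4-week replicates 1, 2 and 3, 1, 1 and 2 without sham replicates 1, 2 and 3, and 4, 4 and 2 without 2-week replicates 1, 2 and 3.

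The list's summed level was 8254 to 21002 normalized counts in the 4-week libraries and 22276 to 58739 in the sham libraries. Not all Kupffer genes passed. Cd163, the haemoglobin scavenger receptor, averaged 2091 ± 1111 at 4 weeks and 2036 ± 1064 in sham (SD, n = 3 each, limma adjusted p = 0.98). Marco, a scavenger receptor, averaged 888 ± 578 at 4 weeks and 1671 ± 1259 in sham (limma adjusted p = 0.634), and Vsig4, a complement receptor of resident macrophages, averaged 1072 ± 724 at 4 weeks and 1981 ± 817 in sham (limma adjusted p = 0.437). Of 18 general macrophage genes 1 passed (1.19% of all tested genes), Itgam, which rose, and the median was -0.15. Adgre1, the F4/80 antigen, averaged 782 ± 291 at 4 weeks and 2529 ± 1098 in sham (limma adjusted p = 0.109). Whether the falls of interferon and antigen presentation genes move with the Kupffer markers was not tested.

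Macrophage genes tied to lipid uptake and scars had a median of 0.79 over 18 tested, with 16 above 0. Fabp5 passed and was higher, against 0.527% of all tested genes. In 9 every 4-week library lay above every sham library, against 8.46% of all tested genes. Without both libraries 4 were higher, against 2.07% of all tested genes. Gpnmb, a glycoprotein of lipid-laden macrophages, had 8903, 4572 and 5018 normalized counts in the 4-week libraries, against 908, 42.1 and 484 in the sham libraries. It did not pass with all libraries (log2 fold change 4.46 ± 0.95 (SE), limma adjusted p = 0.0561) and did without both (2.85, limma adjusted p = 0.0197). Trem2, a lipid receptor of these cells, averaged 213 ± 40.9 at 4 weeks and 68.4 ± 49.5 in sham (SD, n = 3 each, limma adjusted p = 0.138). Dendritic cell genes had a median of -0.998 over 11 tested, with all 11 below 0. Bst2 and Il12b passed and were lower, against 0.661% of all tested genes. Bst2, a tether of virus particles, is also an interferon-stimulated gene. Cd4, a coreceptor of helper T cells that some myeloid cells carry, had 24.3, 21.5 and 6.15 normalized counts in the 4-week libraries, against 115, 131 and 154 in the sham libraries (log2 fold change -3.06 ± 0.46 (SE), limma adjusted p = 0.0178), and Tlr12, a receptor for protozoan profilin in mice, had 11.0, 19.7 and 11.1 normalized counts in the 4-week libraries, against 122, 305 and 95.02 in the sham libraries (log2 fold change -3.41 ± 0.45 (SE), limma adjusted p = 0.0104). Of Fabp5, Bst2, Il12b, Cd4 and Tlr12, 3, 2 and 2 passed without 4-week replicates 1, 2 and 3, 4, 4 and 2 without sham replicates 1, 2 and 3, and 4, 4 and 3 without 2-week replicates 1, 2 and 3.

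Genes best known from nerve and glia were among the falls. Of 23 ion channel and synaptic scaffold genes 6 were lower and 1 higher, against 0.661% and 0.527% of all tested genes. The median was -0.26. Like the other lists, this list had been drawn up with earlier results of these libraries known, so its count is no independent evidence of its direction. Kcnj10, an inward rectifier potassium channel, had 29.8, 14.3 and 22.1 normalized counts in the 4-week libraries, against 171, 142 and 182 in the sham libraries (log2 fold change -2.89 ± 0.34 (SE), limma adjusted p = 0.00997). Kcna2, a voltage-gated potassium channel that is also on the Kupffer list, had 13.3, 65.4 and 30.8 normalized counts in the 4-week libraries, against 382, 342 and 304 in the sham libraries (log2 fold change -3.46 ± 0.65 (SE), limma adjusted p = 0.0386), and did not pass without sham replicate 2, as given above. Gfra2, a coreceptor for neurturin, had 5.49, 9.85 and 3.69 normalized counts in the 4-week libraries, against 110.0, 168 and 64.6 in the sham libraries (log2 fold change -3.96 ± 0.63 (SE), limma adjusted p = 0.0193). Shank2, a synaptic scaffold, had 11.0, 42.1 and 25.8 normalized counts in the 4-week libraries, against 288, 173 and 319 in the sham libraries (log2 fold change -3.39 ± 0.63 (SE), limma adjusted p = 0.037). Kcnab2, a potassium channel beta subunit, was the one that rose, with 109.9, 105 and 81.2 normalized counts in the 4-week libraries, against 32.1, 31.5 and 15.6 in the sham libraries (log2 fold change 1.92 ± 0.32 (SE), limma adjusted p = 0.0229). Of the 7, 2, 1 and 0 passed without 4-week replicates 1, 2 and 3, 3, 5 and 4 without sham replicates 1, 2 and 3, and 6, 6 and 4 without 2-week replicates 1, 2 and 3.

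Pcolce2, an enhancer of procollagen cleavage, had 26.7, 32.2 and 12.3 normalized counts in the 4-week libraries, against 195, 405 and 112 in the sham libraries (log2 fold change -3.17 ± 0.58 (SE), limma adjusted p = 0.0332), with a limma adjusted p of 0.0538 without sham replicate 2 and 0.0404 without both. Ifi27l2a, a small protein induced by interferon, had 7.85, 12.5 and 9.84 normalized counts in the 4-week libraries, against 89.0, 515 and 86.5 in the sham libraries (log2 fold change -3.87 ± 0.65 (SE), limma adjusted p = 0.0232). All 20 of the largest falls passed in edgeR, 14 passed without sham replicate 2 and 17 without both libraries. By single libraries, 11, 6 and 2 passed without 4-week replicates 1, 2 and 3, 9, 14 and 10 without sham replicates 1, 2 and 3, and 19, 18 and 14 without 2-week replicates 1, 2 and 3. Sham replicate 2 was the highest sham library for 13 of the 20.

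Endothelial lists held few calls. None of the 15 tested lymphatic endothelial genes passed, and their median was 0.54 with all libraries, -0.52 without sham replicate 2 and -0.17 without both, so its sign depended on that library. Lyve1 had 4481, 5379.6 and 8146 normalized counts in the 4-week libraries, against 2732, 605 and 3351 in the sham libraries and did not pass, though the groups did not overlap (log2 fold change 1.72 ± 0.69 (SE), limma adjusted p = 0.306). Pdpn had 78.5, 241 and 287 normalized counts in the 4-week libraries, against 186, 52.6 and 177 in the sham libraries (log2 fold change 0.54 ± 0.58 (SE), limma adjusted p = 0.726). Il7, the cytokine gene that holds the reporter, had 18.8, 56.4 and 55.4 normalized counts in the 4-week libraries, against 63.3, 15.8 and 70.9 in the sham libraries (log2 fold change -0.09 ± 0.63 (SE), limma adjusted p = 0.963). The summed level of the lymphatic list was 30963 to 54468 normalized counts in the 4-week libraries and 9374 to 54789 in the sham libraries. None of 17 genes of endothelium in general passed, with a median of 0.04, and -0.56 without sham replicate 2. Without both libraries 1 gene of the lymphatic list was lower and 1 of general endothelium higher, against 1.93% and 2.07% of all tested genes.

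Of 16 sinusoidal endothelial genes tested, 1 was lower and 1 higher, against 0.661% and 0.527% of all tested genes. Dnase1l3, a secreted DNase of sinusoidal endothelium and dendritic cells, had 49.5, 18.8 and 25.8 normalized counts in the 4-week libraries, against 174, 379 and 143 in the sham libraries (log2 fold change -2.83 ± 0.44 (SE), limma adjusted p = 0.0192). Fcgr2b, the inhibitory Fc receptor, had 717, 504 and 357 normalized counts in the 4-week libraries, against 124, 199.8 and 153 in the sham libraries and was higher (log2 fold change 1.69 ± 0.29 (SE), limma adjusted p = 0.0281). Of both, 1, 0 and 0 passed without 4-week replicates 1, 2 and 3, 1, 2 and 1 without sham replicates 1, 2 and 3, and 2, 1 and 1 without 2-week replicates 1, 2 and 3. Stab2, a hyaluronan scavenger receptor, had 401, 1343 and 669 normalized counts in the 4-week libraries, against 3099, 1251 and 4047 in the sham libraries. Its groups overlapped and it did not pass with all libraries (log2 fold change -1.81 ± 0.50 (SE), limma adjusted p = 0.127), while it did without sham replicate 2 (-2.31, limma adjusted p = 0.0383) and without both (-1.90, limma adjusted p = 0.0187).

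**Figure D5:**
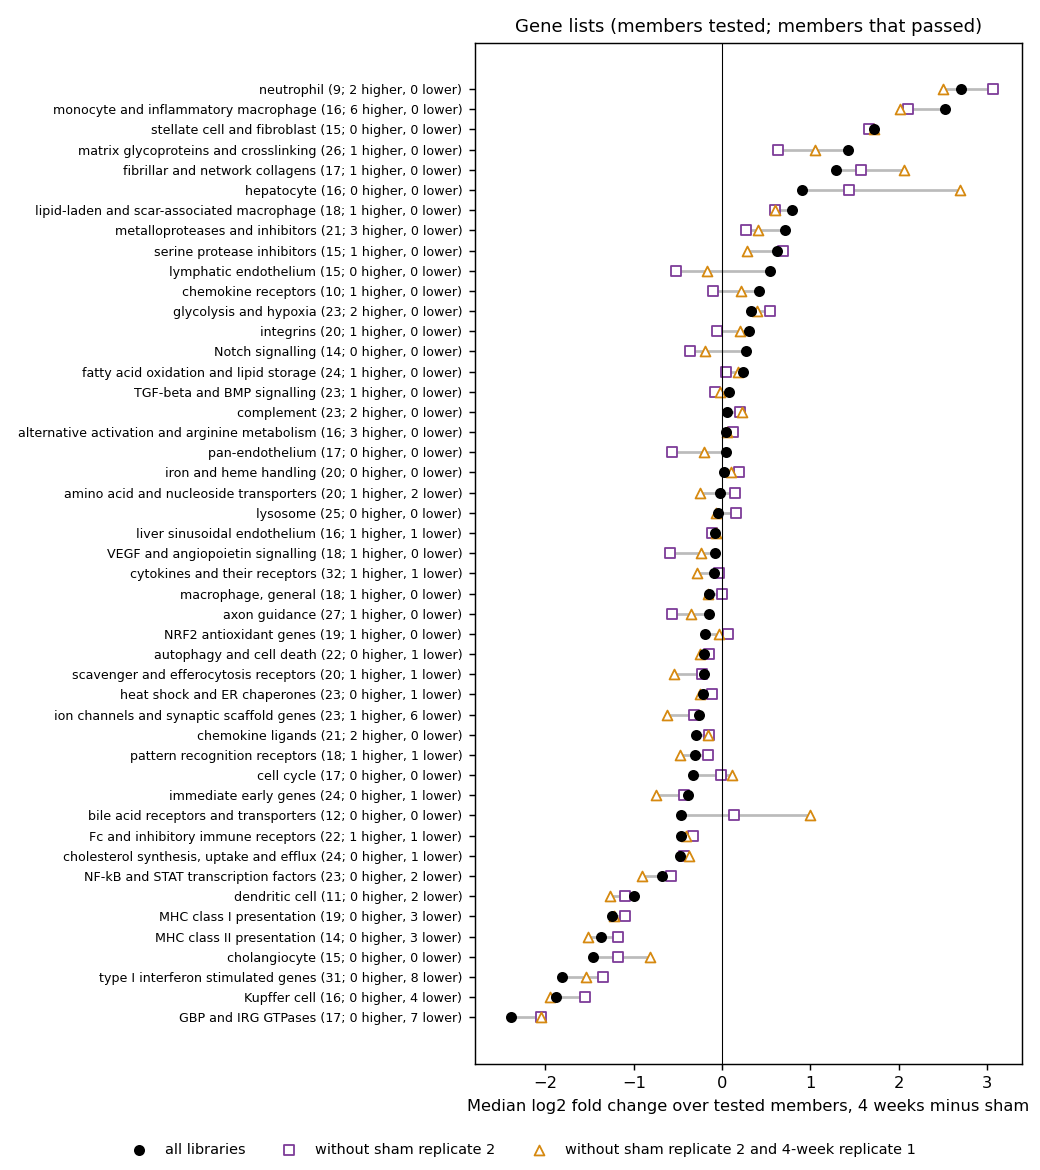
Median log2 fold change, 4 weeks minus sham, over the tested members of the 47 lists with at least 5 of them, with all libraries (black), without sham replicate 2 (open squares) and without sham replicate 2 and 4-week replicate 1 (open triangles). Labels give the members tested and the members that passed in each direction. The GTPase, Kupffer and interferon lists lie lowest and the neutrophil and monocyte lists highest, and the lymphatic endothelial median changes sign.

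Genes of other liver cells did not pass with all libraries. None of 16 hepatocyte genes did, with a median of 0.90 that was 2.70 without both libraries, and their summed level was 5788 to 31901 normalized counts in the 4-week libraries and 3321 to 20924 in the sham libraries. None of 15 cholangiocyte genes did, with a median of -1.46, 14 below 0 and a summed level of 1582 to 4315 in the 4-week libraries and 3940.4 to 6918 in the sham libraries. Sox9, a transcription factor of bile duct cells, averaged 65.2 ± 36.6 at 4 weeks and 216 ± 64.4 in sham (SD, n = 3 each, limma adjusted p = 0.136), and Krt19, a keratin of these cells, had 23.5, 46.6 and 41.8 normalized counts in the 4-week libraries, against 43.1, 142 and 143 in the sham libraries. The 12 tested genes of bile acid receptors and transporters held no call, with a median of -0.46 with all libraries, 0.13 without sham replicate 2 and 0.99 without both. The cell cycle list (17 tested), the lysosome list (25 tested) and the iron and heme list (20 tested) held none either with all libraries. Without both, 2.07% of all tested genes were higher and 1.93% lower. There the hepatocyte list had 2 higher, the bile acid list 1 higher and the lysosome list 2 higher. The iron and heme list had 3 higher and 2 lower, and the cholangiocyte and cell cycle lists held none.

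Of the 142 genes 68 were on at least 1 of the 51 lists, 27 higher and 41 lower, and 74 on none. For 135 of the 142 (95.1%) the 2-week mean lay between the 4-week and sham means, against 45.1% of all tested genes. The 142 were chosen on the 4-week and sham values and the sham libraries are shared, so this is a description. Leaving out both libraries added 345 genes, 187 higher and 158 lower, of which 2 had the other sign with all libraries.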

How the data were processed

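The authors deposited 1 table for all libraries with a normalized signal per gene, that is gene counts divided by a size factor per library. Dividing each column by its smallest value above 0 gave whole reads for all 197424 values (tolerance 0.001). The submitters' processing notes list HISAT2 2.1.0, Trim Galore 0.5.0, DESeq2 1.22.1, StringTie 1.3.3b and build mm10, and neither an annotation release nor a strand setting is given in the sources used here. GENCODE M21 (GRCm38, the assembly of mm10) held 21894 of the gene IDs and gave coordinates and exons.

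Values were tested as log2(normalized count + 1) with limma 3.58.1 (R 4.3.3). The fit had 1 mean per group and used all 9 libraries, which leaves 6 residual degrees of freedom, with trended empirical Bayes moderation, two-sided p-values and Benjamini-Hochberg adjustment across the 11946 genes at 0.05. The p-values measure the spread between these samples. Alternatives were edgeR 4.0.16 and DESeq2 1.42.0 on recovered reads, other pseudocounts, filters and scalings, library weights, a replicate block, the 6 libraries alone, and leaving out each library. Intervals and floors cover counting error only, as reads carried no molecular identifiers.

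The members and lists were chosen with earlier results of these data known. Named genes were the 20 largest rises and falls (passing, mean of at least 50, no predicted models, no overlap), the 12 passing genes of highest mean, up to 5 list members of lowest p, the genes that held in every fit, and cell markers. Genes of a description outside these were chosen after seeing values. A gene counts under every list that holds it. Results for a few single genes that these rules name are not reported here. No pair of replicates agreed within sampling noise (chi-square over its degrees of freedom between 6.68 and 45.9), so none was counted as a repeat. On simulated counts for 4 weeks against sham (11745 genes), limma called 4 of 76 genes changed 2-fold, 27 of 52 changed 4-fold and 53 of 60 changed 8-fold, with 5 calls among unchanged genes.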

Additional observations from a re-analysis of the deposited data

Results flagged for a closer look

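A signal was found on genes that liver cells are not known to use. Odorant and vomeronasal receptor genes held a median of 702 of every 1000000 reads in the 4-week libraries, against 38.2, 451 and 52.7 in sham replicates 1, 2 and 3. That median lay above all sham libraries, while the lowest 4-week library (222) lay below sham replicate 2.

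Among the 9990 genes below the filter on low values, 1433 (14.3%) had every 4-week library above every sham library and 72 (0.721%) had every 4-week library below every sham library. These genes were not tested, and the number of genes with a read was also higher in each 4-week library than in each sham library.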

How the results depend on the processing

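The 73 named genes that passed kept their sign in each of the 22 alternatives that gave them a value (3 of them, Mmp8, Slc1a2 and Slc1a3, were not tested at a minimum mean of 50), and of the 161 named genes that did not pass 14 had the other sign in at least 1. Against 142 genes with all libraries (63 higher, 79 lower), quantile scaling gave 225 (132 lower), the fit with only these 6 libraries 55 (28 higher, 27 lower), library quality weights 1548 (750 higher, 798 lower), DESeq2 on recovered reads 524 (203 higher, 321 lower) and edgeR 125 lower genes. Leaving out 1 library gave between 9 and 166 genes, 6 to 101 higher and 3 to 68 lower. Without sham replicate 2 and 4-week replicate 1 together, 477 passed (247 higher, 230 lower), and edgeR without sham replicate 2, chosen after seeing the data, gave 194. The groups did not overlap for 2020 genes with all libraries, 3525 with no filter, 2745 to 3673 leaving out 1 library and 6020 without both, which has fewer libraries to compare. The cause of the other moves was not tested. With the replicate number as a block 85 genes passed (43 lower), 77 of them among the 142. Deviations from the group means of 4-week and sham samples with the same number had correlations of 0.18, 0.01 and 0.19. Samples with unlike numbers were not compared in this way. Whether samples with the same number were handled together was therefore not tested. Other pseudocounts, filters and TMM scaling gave 138 to 190 genes. Depth limits low genes most in sham replicate 2, and in simulated data few 2-fold changes were called.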

Other observations

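The genes below are on none of the lists and were chosen after their values had been seen. They do not stand for a group. The first 7 are genes of the matrix, its assembly or secretion that were higher, while Pcolce2, given above, was lower. Cilp, a secreted matrix protein first described in cartilage, had 40.8, 68.9 and 76.3 normalized counts in the 4-week libraries, against 0, 0 and 1.56 in the sham libraries. Mgp, matrix Gla protein, an inhibitor of calcification, had 54.2, 89.5 and 82.4 normalized counts in the 4-week libraries, against 9.17, 10.5 and 5.45 in the sham libraries (log2 fold change 3.04 ± 0.45 (SE), limma adjusted p = 0.0168). Both were low in all sham libraries and high in all 4-week libraries. Spon1, an axon guidance glycoprotein of the matrix, had 33.0, 129.8 and 57.8 normalized counts in the 4-week libraries, against 14.7, 5.26 and 8.57 in the sham libraries (log2 fold change 2.71 ± 0.55 (SE), limma adjusted p = 0.0491), with a limma adjusted p of 0.0782 without sham replicate 2. Pcsk5, a proprotein convertase, had 25.1, 71.6 and 77.5 normalized counts in the 4-week libraries, against 4.59, 5.26 and 3.89 in the sham libraries (log2 fold change 3.26 ± 0.47 (SE), limma adjusted p = 0.016). Xylt1, which starts glycosaminoglycan chains on proteoglycans, had 168, 82.4 and 122 normalized counts in the 4-week libraries, against 29.3, 42.1 and 38.9 in the sham libraries (log2 fold change 1.68 ± 0.30 (SE), limma adjusted p = 0.0305). Col13a1, a transmembrane collagen, had 54.2, 30.4 and 88.6 normalized counts in the 4-week libraries, against 6.42, 5.26 and 3.12 in the sham libraries (log2 fold change 3.22 ± 0.63 (SE), limma adjusted p = 0.0423), with a limma adjusted p of 0.055 without sham replicate 2. Col11a1, a chain of a minor fibrillar collagen, had 11.8, 33.1 and 57.8 normalized counts in the 4-week libraries, against 0, 0 and 0 in the sham libraries, so every sham library held no read. The density of reads on smell receptor genes over its exons amounts to at most 15.9% of a 4-week library's value. The same measure was 13.4% in Pcsk5, 12.9% in Spon1, 1.04% in Mgp and, for a gene given below, 13.1% in Cyp1b1. Of these 7 genes, 5, 2 and 0 passed without 4-week replicates 1, 2 and 3, 3, 5 and 3 without sham replicates 1, 2 and 3, and 4, 5 and 3 without 2-week replicates 1, 2 and 3.

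A further 6 genes that were higher, picked in the same way, are enzymes, receptors and other proteins, and genes of these kinds were also lower. Gpx3, the secreted glutathione peroxidase, had 889, 862 and 811 normalized counts in the 4-week libraries, against 268, 305 and 175 in the sham libraries (log2 fold change 1.81 ± 0.24 (SE), limma adjusted p = 0.0105), with little spread in either group. Eps8, a regulator of actin at cell protrusions, had 654, 377 and 456 normalized counts in the 4-week libraries, against 102, 68.3 and 122 in the sham libraries (log2 fold change 2.34 ± 0.28 (SE), limma adjusted p = 0.00997), and Adora2b, a receptor for adenosine, had 68.3, 35.8 and 56.6 normalized counts in the 4-week libraries, against 7.34, 5.26 and 3.89 in the sham libraries (log2 fold change 3.06 ± 0.43 (SE), limma adjusted p = 0.0131). Abcb1b, a multidrug efflux pump, had 54.2, 59.1 and 68.9 normalized counts in the 4-week libraries, against 15.6, 15.8 and 20.3 in the sham libraries (log2 fold change 1.76 ± 0.31 (SE), limma adjusted p = 0.0305). Lyst, a regulator of lysosome size, had 961, 548 and 550.0 normalized counts in the 4-week libraries, against 233, 221 and 270.3 in the sham libraries (log2 fold change 1.46 ± 0.26 (SE), limma adjusted p = 0.0294), and Cyp1b1, a cytochrome P450 outside hepatocytes, had 13.3, 73.4 and 32.0 normalized counts in the 4-week libraries, against 3.67, 0 and 1.56 in the sham libraries (log2 fold change 3.84 ± 0.77 (SE), limma adjusted p = 0.0469), with a limma adjusted p of 0.065 without sham replicate 2. Of these 6, 5, 3 and 0 passed without 4-week replicates 1, 2 and 3, 3, 5 and 3 without sham replicates 1, 2 and 3, and 5, 3 and 3 without 2-week replicates 1, 2 and 3.

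Falls outside the lists were of several kinds, among them receptors of endothelium and myeloid cells. Ocln, occludin, a protein of tight junctions, had 10.2, 14.3 and 8.61 normalized counts in the 4-week libraries, against 59.6, 63.1 and 65.4 in the sham libraries (log2 fold change -2.43 ± 0.39 (SE), limma adjusted p = 0.0211). Procr, the endothelial receptor of protein C, had 51.8, 68.1 and 118 normalized counts in the 4-week libraries, against 304, 442 and 266 in the sham libraries (log2 fold change -2.13 ± 0.41 (SE), limma adjusted p = 0.0423). Hpgd, which breaks down prostaglandins, had 151, 189.8 and 97.2 normalized counts in the 4-week libraries, against 1187, 1262 and 710.3 in the sham libraries (log2 fold change -2.85 ± 0.47 (SE), limma adjusted p = 0.0216). Dysf, dysferlin, a protein of membrane repair, had 215, 321 and 269 normalized counts in the 4-week libraries, against 1002, 836 and 979.8 in the sham libraries (log2 fold change -1.82 ± 0.24 (SE), limma adjusted p = 0.0112). Siglece, an inhibitory receptor for sialic acid on myeloid cells, had 116, 80.6 and 59.1 normalized counts in the 4-week libraries, against 341, 615 and 252 in the sham libraries (log2 fold change -2.18 ± 0.40 (SE), limma adjusted p = 0.0367), and Slamf8, Lilra5, Pira2, Adgre4 and Paqr9 were also lower, with log2 fold changes of -1.96, -2.37, -2.34, -2.71 and -2.85. Without sham replicate 2 the limma adjusted p was 0.0771 for Procr, 0.0538 for Siglece, 0.0666 for Slamf8, 0.0844 for Lilra5 and 0.0896 for Adgre4. Of these 10, 5, 1 and 0 passed without 4-week replicates 1, 2 and 3, 2, 5 and 5 without sham replicates 1, 2 and 3, and 6, 8 and 5 without 2-week replicates 1, 2 and 3.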
